A study of Homo sapiens with 12 samples.

Results

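Phosphoinositide 3-kinase (PI3K) genes, with a PI3K adaptor and a phosphatase that removes the PI3K product, were followed in TMD8 cells after knockdown of the transcription factor IRF4. The set held 9 of the 26318 genes in the count table, taken by symbol: the catalytic subunits PIK3CA, PIK3CB, PIK3CD and PIK3CG, the regulatory subunits PIK3R1, PIK3R5 and PIK3R6, the B cell adaptor PIK3AP1 (BCAP) and the inositol phosphatase INPP5D (SHIP1). TMD8 is an established human B cell lymphoma line, labelled ABC lymphoma (activated B cell). Of the 12 poly(A) RNA libraries, 6 came from cells with a short hairpin RNA (shRNA) against IRF4 and 6 from control cells with a scramble shRNA, all from pellets taken at 24 h. Library names split each group into 3 libraries of series 1 (replicates 1 to 3) and 3 of series 2 (replicates 4 to 6), and no label explains that number. Nor do the labels tell if the libraries were made from separate cultures, and the p-values then cover only the spread among these libraries, which can be technical. The hairpin sequences, their delivery and the number of clones are not given in the labels.

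PI3K phosphorylates the membrane lipid PIP2 to PIP3, which recruits kinases such as AKT and BTK. In class IA enzymes a catalytic subunit (alpha, beta or delta) is bound by a regulatory subunit such as the product of PIK3R1, which docks on phosphorylated receptors and adaptors. PI3K gamma, the class IB enzyme, pairs the PIK3CG product with an adaptor from PIK3R5 or PIK3R6 and responds to G protein beta-gamma subunits and Ras. In B cells, BCAP helps to bring class IA PI3K to the B cell receptor, delta is the main catalytic form, and SHIP1 turns PIP3 into another lipid below inhibitory receptors.

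The libraries held between 31.3 and 38.2 M counts in total (M, 1e6 counts). The target, IRF4, stood at 526, 507 and 524 counts per 1e6 counts (CPM) in the series 1 IRF4 shRNA libraries and at 715, 703 and 688 CPM in those of series 2, against 1426, 1570 and 1485 CPM in the series 1 controls and 1450, 1517 and 1431 CPM in the series 2 controls. IRF4 RNA was thus at 34.7% of control in series 1 and 47.9% in series 2, and the difference between the series effects passed the edgeR test (log2 difference 0.46, SE 0.056, adjusted p = 0.00106). All 6 B cell markers checked were at 1 CPM or more, and their summed level was 6474 to 6809 CPM with IRF4 shRNA and 4526 to 5109 CPM in controls. Of the T cell markers, 3 of 6 were in the table, summing to 0.762 to 1.29 CPM with IRF4 shRNA and 0.483 to 0.858 CPM in controls, with CD3E at or near 0. For monocytes 4 of 6 markers were in the table, summing to 0.299 to 0.87 CPM with IRF4 shRNA and 0.153 to 0.823 CPM in controls. The 4 of 5 fibroblast markers in the table summed to 5.73 to 7.44 CPM with IRF4 shRNA and 3.87 to 5.33 CPM in controls, most of it COL1A1. The part of these markers in the results was not tested.

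Libraries also differed in how levels leaned with transcript GC content. The Spearman correlation across genes between GC content and a library's deviation from its group mean was 0.24 to 0.31 in series 1 and -0.33 to -0.20 in series 2 of the IRF4 shRNA libraries, against -0.50 to -0.05 and -0.36 to 0.60 in the controls of series 1 and 2. Control replicates 5 and 6, with 0.42 and 0.60, stood apart from the other controls.

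Across the 12 libraries, 8 of the 9 genes changed at an edgeR adjusted p under 0.05. Of all 16437 genes tested 48.2% changed, so the number of calls alone does not set these genes apart. PIK3CG, PIK3R6, PIK3AP1 and INPP5D rose, as did 24.2% of all genes tested, and PIK3CB, PIK3CD, PIK3R1 and PIK3R5 fell, as did 23.9%. PIK3CG and PIK3R6, both genes of PI3K gamma, rose by at least 2-fold, a size that 5.65% of genes tested reached. None of the falls reached 2-fold, against 2.74% of genes tested. In 7 of the 9 genes the IRF4 shRNA and control libraries did not overlap, which held for 30.8% of genes tested. All 9 passed the filter on low counts, PIK3R6 only through its IRF4 shRNA libraries, so that its call was bound to be a rise and adds nothing to these counts. Without it, 7 of the other 8 genes changed, 3 of them higher. In bulk samples such as these, fewer cells of a type and less RNA per cell cannot be told apart.

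**Figure D1:**
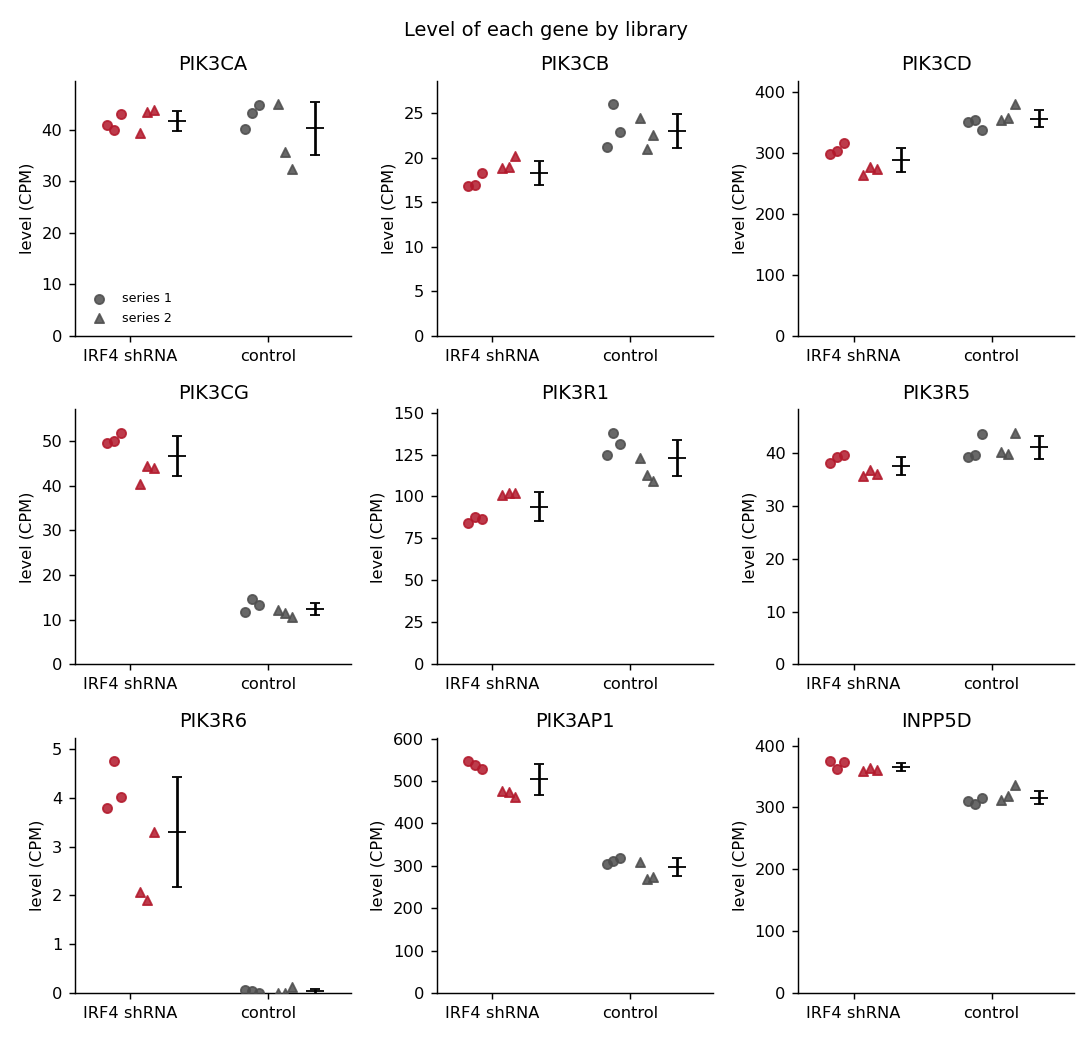
Level of each gene in CPM (vertical axes, from 0) in the 6 IRF4 shRNA and 6 control libraries; circles are series 1, triangles series 2, and the bar beside each group is the mean with its SD over 6 libraries. PIK3CG, PIK3R6, PIK3AP1 and INPP5D sat higher with IRF4 shRNA in every library, PIK3CB, PIK3CD and PIK3R1 sat lower in every library, and the groups overlapped in PIK3CA and PIK3R5.

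PIK3CD (hg38 chromosome 1, 9651731 to 9729114, plus strand), which encodes the delta catalytic subunit, was at 298, 304 and 316 CPM in the IRF4 shRNA libraries of series 1 and at 264, 277 and 274 CPM in those of series 2. Its controls had 351, 354 and 338 CPM in series 1 and 354, 358 and 380 CPM in series 2. Every IRF4 shRNA library was below every control, and the 3 of series 2 were the lowest. Over all libraries PIK3CD averaged 289 ± 19.9 CPM with IRF4 shRNA and 356 ± 13.7 CPM in controls (SD, n = 6 each), a log2 fold change of -0.30 (SE 0.045, adjusted p = 5.24e-05). Within series 1 the log2 fold change was -0.19 (SE 0.037, adjusted p = 0.00116), and within series 2 it was -0.41 (SE 0.046, adjusted p = 0.00018). The series 2 effect was lower than that of series 1 by a log2 difference of -0.24 (SE 0.057, adjusted p = 0.0196). With the GC trend of each library removed that difference was -0.0062 (adjusted p = 0.969), and it missed the threshold without IRF4 shRNA replicate 3 (adjusted p = 0.056), without IRF4 shRNA replicate 6 (0.0522) or without control replicate 3 (0.0603). Genes on the other strand overlap PIK3CD, and whether the counting used strand is not given. Of these, CLSTN1 averaged 53.3 ± 1.33 CPM with IRF4 shRNA and 52.2 ± 4.24 CPM in controls, and PIK3CD-AS1 averaged 1.56 ± 0.595 and 2.99 ± 0.569 CPM.

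PIK3CB (chromosome 3, 138652698 to 138834928, minus strand), the gene of the beta subunit, was at 16.8, 16.9 and 18.3 CPM with IRF4 shRNA in series 1 and at 18.8, 19 and 20.2 CPM in series 2. The controls held 21.2, 26 and 22.9 CPM in series 1 and 24.5, 21 and 22.6 CPM in series 2. The groups did not overlap, although the highest IRF4 shRNA library lay close to the lowest control. The log2 fold change was -0.33 over 12 libraries (SE 0.065, adjusted p = 0.000631) and -0.44 in series 1 (SE 0.08, adjusted p = 0.000743). In series 2 it was -0.22 (SE 0.077), which missed the threshold at an adjusted p of 0.0518 and passed it at 0.0413 without control replicate 5. It also passed with the GC trend removed (-0.29, adjusted p = 0.00468, or 0.00712 with the replicate block) and with DESeq2 size factors (0.049). Scaling by totals alone gave -0.15 (adjusted p = 0.176). The series effects were not shown to differ (log2 difference 0.20, SE 0.11, adjusted p = 0.245). A processed pseudogene, EEF1A1P25, lies within PIK3CB and held 83 counts with IRF4 shRNA and 163 in controls.

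PIK3CA (chromosome 3, 179148114 to 179240093, plus strand), the gene of the alpha subunit, which is expressed in most tissues, was the only gene of the 9 that did not pass the test over 12 libraries. Its level was lowest at 39.4, median 42 and highest at 43.8 CPM with IRF4 shRNA, against 32.4, 41.7 and 45 CPM in controls. The IRF4 shRNA libraries lay inside the range of the controls. The low end of that range came from control replicates 5 and 6, at 35.7 and 32.4 CPM, the libraries with the highest GC correlations, and the transcript's GC content is 36.4%. The log2 fold change was 0.054 (SE 0.075, adjusted p = 0.585). Leaving both of those controls out turned it to -0.055 (adjusted p = 0.346), and removing the GC trend gave 0.12 (adjusted p = 0.0133). By series it was -0.057 in series 1 (SE 0.055, adjusted p = 0.425) and 0.18 in series 2 (SE 0.11, adjusted p = 0.241), and without control replicate 4 the series 2 value was 0.31 (adjusted p = 0.0017) and the series difference 0.36 (adjusted p = 0.00706). No direction is therefore given for PIK3CA.

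PIK3R1 (chromosome 5, 68215756 to 68301821, plus strand) encodes the alpha regulatory subunits of class IA PI3K. Its levels were 84.2, 88 and 86.7 CPM in the IRF4 shRNA libraries of series 1 and 101, 102 and 102 CPM in those of series 2. Controls of series 1 had 125, 138 and 131 CPM and those of series 2 had 123, 113 and 109 CPM. PIK3R1 was thus lower with IRF4 shRNA in every library, and the gap between groups was narrow in series 2 and wide in series 1. Over 12 libraries it averaged 94 ± 8.53 CPM with IRF4 shRNA and 123 ± 10.7 CPM in controls (SD, n = 6 each), a log2 fold change of -0.39 (SE 0.067, adjusted p = 0.000194).

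By series, PIK3R1 fell by 0.61 on the log2 scale in series 1 (SE 0.045, adjusted p = 4.36e-07) and by 0.17 in series 2 (SE 0.054, adjusted p = 0.0362). The series effects differed by 0.42 (SE 0.068, adjusted p = 0.00508), and this call held in all 21 alternatives run, at 0.26 to 0.47. The fall within series 2 was less firm and held in 7 of 15 alternatives. It missed the threshold with scaling by totals alone (adjusted p = 0.217) and with no filter on low counts (0.0515). It also missed the threshold without IRF4 shRNA replicate 4 (adjusted p = 0.112), 5 (0.117) or 6 (0.12) and without control replicate 5 (0.0631). With the GC trend removed the series 2 fall passed, at -0.24 (adjusted p = 0.000236). It was -0.28 without control replicates 5 and 6, where only control replicate 4 remains in series 2. The lowest PIK3R1 levels among controls were those of replicates 5 and 6, and the gene's transcript GC content is 40.1%. IRF4 itself was less reduced in series 2, as given above, and the part of either measure in the PIK3R1 difference was not tested.

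PIK3CG (chromosome 7, 106865278 to 106908980, plus strand), the gamma catalytic subunit gene, showed the clearest change among the catalytic genes. It was at 49.6, 50 and 51.9 CPM with IRF4 shRNA in series 1 and at 40.5, 44.4 and 44 CPM in series 2, against 11.8, 14.6 and 13.4 CPM in the controls of series 1 and 12.3, 11.6 and 10.6 CPM in those of series 2. The lowest IRF4 shRNA library was far above the highest control. The rise was 3.77-fold (log2 fold change 1.92, SE 0.081, adjusted p = 5.81e-11). It came to 1.93 on the log2 scale in series 1 (SE 0.071, adjusted p = 1.09e-09) and 1.91 in series 2 (SE 0.078, adjusted p = 4.41e-07), and a difference between the series was not shown (log2 difference -0.036, SE 0.11, adjusted p = 0.858). Its nearest neighbour in the table, PRKAR2B, lies 136 kb away and averaged 0.435 ± 0.192 CPM with IRF4 shRNA and 0.431 ± 0.0964 CPM in controls.

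PIK3R6 (chromosome 17, 8802722 to 8867677, minus strand), an adaptor subunit gene of PI3K gamma, was close to undetected in controls. It had 3.79, 4.75 and 4.01 CPM in the IRF4 shRNA libraries of series 1 and 2.06, 1.9 and 3.3 CPM in those of series 2. Control libraries had 0.0568, 0.0291 and 0 CPM in series 1 and 0, 0 and 0.116 CPM in series 2, while 3 counts correspond to 0.0786 to 0.0959 CPM. Summed over libraries, 702 counts with IRF4 shRNA stood against 7 in controls, a ratio of rates of 92.9 with an exact 95% interval of 44.9 to 232 that covers counting error only. The ratio was 139 (47.3 to 678) in series 1, from 429 against 3 counts, and 60.3 (23.3 to 223) in series 2, from 273 against 4 counts. Since the filter on low counts already chose PIK3R6 for its IRF4 shRNA libraries, these values are a description and the p of its fit is not given; the fitted log2 fold change of 6.41 (SE 0.46) rests on those 7 control counts. Control replicate 6 held all 4 of the series 2 control counts, and without it the fitted log2 fold change was 7.24 over 12 libraries, while in series 2 it then depends on the prior count of the fit. Without control replicate 1 the series 1 value was 7.77, against 6.95 with it (SE 0.37). The series intervals overlap, and the interaction was not past the threshold (log2 difference -1.18, SE 1.35, adjusted p = 0.596).

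PIK3R5 (chromosome 17, 8878911 to 8965712, minus strand), the other gamma adaptor gene, lies 11.2 kb from PIK3R6 on the same strand of chromosome 17, and moved little. It was at 38, 39.2 and 39.5 CPM with IRF4 shRNA in series 1 and at 35.7, 36.8 and 35.9 CPM in series 2. Controls had 39.2, 39.6 and 43.6 CPM in series 1 and 40.1, 39.7 and 43.8 CPM in series 2. The groups overlapped in series 1 and did not in series 2. Over 12 libraries the log2 fold change was -0.13 (SE 0.044, adjusted p = 0.0264), and this call is fragile. It was lost without IRF4 shRNA replicate 1 (adjusted p = 0.0607), 4 (0.0929), 5 (0.0803) or 6 (0.0931), without control replicate 3 (0.0579), and when libraries were scaled by their totals alone (log2 fold change -0.054, adjusted p = 0.318). By series it was -0.074 in series 1 (SE 0.055, adjusted p = 0.285) and -0.18 in series 2 (SE 0.061, adjusted p = 0.0468), without a difference past the threshold (-0.12, SE 0.078, adjusted p = 0.303). The series 2 call held in 2 of 15 alternatives and was lost without IRF4 shRNA replicate 4 (adjusted p = 0.144), 5 (0.111) or 6 (0.149) and without control replicate 5 (0.0574) or 6 (0.098).

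PIK3AP1 (chromosome 10, 96593315 to 96720514, minus strand), the gene of BCAP, which carries docking sites for class IA PI3K, was among the more abundant genes of the set. IRF4 shRNA libraries had 547, 537 and 529 CPM in series 1 and 477, 475 and 462 CPM in series 2, and controls had 305, 311 and 319 CPM in series 1 and 308, 268 and 274 CPM in series 2. No library of either group came near the other group. PIK3AP1 averaged 504 ± 37.2 CPM with IRF4 shRNA and 298 ± 21.1 CPM in controls (SD, n = 6 each), a 1.7-fold rise (log2 fold change 0.76, SE 0.056, adjusted p = 2.74e-08). The log2 fold change was 0.78 in series 1 (SE 0.034, adjusted p = 4.3e-09) and 0.74 in series 2 (SE 0.055, adjusted p = 1.46e-05), with a difference of -0.056 (SE 0.063, adjusted p = 0.586). The pseudogene RPS2P36 inside it held 226 counts with IRF4 shRNA and 107 in controls.

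INPP5D (chromosome 2, 233059967 to 233207903, plus strand) encodes SHIP1, a phosphatase that acts on PIP3 and is largely restricted to blood cells. Its level was 375, 363 and 373 CPM with IRF4 shRNA in series 1 and 359, 364 and 361 CPM in series 2, against 310, 306 and 316 CPM in the controls of series 1 and 312, 318 and 337 CPM in those of series 2. The groups did not overlap, and the spread within the IRF4 shRNA group was narrow. The rise was 1.16-fold (log2 fold change 0.21, SE 0.029, adjusted p = 2.78e-05). Its log2 fold change was 0.25 in series 1 (SE 0.034, adjusted p = 8.03e-05) and 0.18 in series 2 (SE 0.045, adjusted p = 0.0144). The series 2 call was lost without IRF4 shRNA replicate 4 (adjusted p = 0.0545), 5 (0.0669) or 6 (0.0579) and without control replicate 5 (0.0599). With the GC trend removed it held, at 0.22 (adjusted p = 0.000283).

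**Figure D2:**
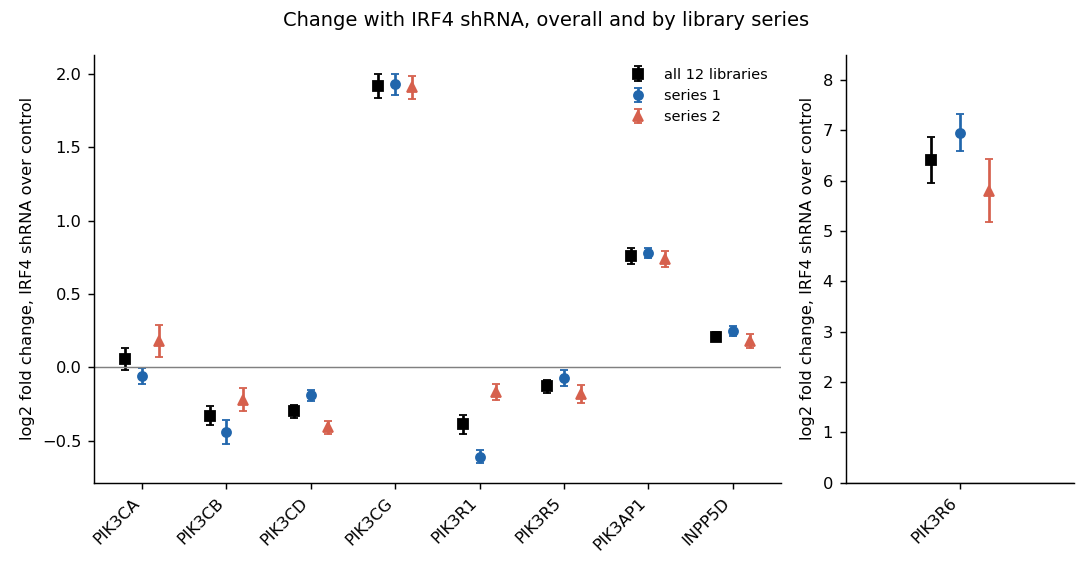
Log2 fold change of each gene, IRF4 shRNA over control (vertical axis; PIK3R6 on its own axis), with squares for all 12 libraries, circles for series 1, triangles for series 2 and bars of 1 SE. PIK3CG lay at 1.93 in series 1 and 1.91 in series 2, PIK3R1 fell more in series 1 and PIK3CD fell more in series 2.

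By series, 7 of the 9 genes changed in each. In series 1 these were PIK3CG, PIK3R6, PIK3AP1 and INPP5D higher and PIK3CB, PIK3CD and PIK3R1 lower, where 50.5% of genes tested changed. In series 2 PIK3R5 passed the test in place of PIK3CB, where 38.1% of genes tested changed. The 2 genes lay on either side of the threshold, at adjusted p of 0.0468 for PIK3R5 and 0.0518 for PIK3CB, and both outcomes depended on the setting. Apart from PIK3R6, whose call the filter fixed, 6 of the other 8 genes changed in each series. Leaving out IRF4 shRNA replicate 4, 5 or 6 cut the series 2 count to 4 genes each time. The calls over all genes fell too, from 6332 of 16614 tested to 4645 of 17058, 4444 of 16974 and 4449 of 16921. This drop therefore does not set the 9 genes apart. The interaction passed the threshold in 2 of 9 genes, PIK3R1 and PIK3CD, and in 13% of all genes tested.

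The series also differed within a group. Among IRF4 shRNA libraries, series 1 and series 2 did not overlap in 7 of the 9 genes, which held for 36.9% of genes tested. PIK3CG, PIK3R6, PIK3AP1, PIK3CD and PIK3R5 were lower in series 2 than in series 1 of the IRF4 shRNA libraries, and PIK3CB and PIK3R1 were higher. These libraries also differed by series in GC correlation, as given above. Transcript GC content is 40.3% for PIK3CB and 40.1% for PIK3R1. It is 45.5% for PIK3CG, 48.5% for PIK3AP1, 58.6% for PIK3CD and 58.8% for PIK3R5 and PIK3R6. The part of GC content in these series differences was not tested. Among controls 2 of the 9 genes, PIK3CD and PIK3R1, had series that did not overlap, against 12.9% of genes tested. For PIK3CD this rests on less than the printed precision, since control replicates 2 and 4 were both at 354 CPM.

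Levels of different genes were compared per kilobase of exon (CPM per kb). With IRF4 shRNA the order was PIK3AP1 (88.6 CPM per kb), PIK3CD (45.6), INPP5D (42.1), PIK3R1 (8.73), PIK3CG (7.88), PIK3R5 (5), PIK3CA (4.4), PIK3CB (2.34) and PIK3R6 (0.927). In that order PIK3CD and INPP5D overlapped across libraries, as did PIK3R1 and PIK3CG. In controls the order was PIK3CD (56.2 CPM per kb), PIK3AP1 (52.3), INPP5D (36.4), PIK3R1 (11.4), PIK3R5 (5.46), PIK3CA (4.24), PIK3CB (2.93), PIK3CG (2.09) and PIK3R6 (0.00944). Only PIK3CD and PIK3AP1 overlapped among neighbours there. PIK3CG was thus above PIK3R5, PIK3CA and PIK3CB in IRF4 shRNA cells and below all of these in control cells.

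Summed per kilobase, the 4 catalytic genes came to 60.2 ± 3.79 CPM per kb with IRF4 shRNA and 65.4 ± 1.67 CPM per kb in controls (SD, n = 6 each), and the groups overlapped. Within that sum PIK3CD held 75.7% ± 0.639 with IRF4 shRNA and 85.8% ± 1.55 in controls, so that delta remained the most abundant catalytic transcript in both. PIK3CG held 13.1% ± 0.45 with IRF4 shRNA and 3.19% ± 0.392 in controls. PIK3CA held 6.69% to 7.97% with IRF4 shRNA and 5.02% to 7.49% in controls, and PIK3CB 3.42% to 4.45% and 4.12% to 4.99%. These shares follow from the levels above and were not tested on their own.

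The makeup of the gamma genes shifted on both sides. PIK3R6 made up 15.4% ± 4.14 of the summed PIK3R5 and PIK3R6 level with IRF4 shRNA and 0.169% ± 0.225 in controls (SD, n = 6 each). PIK3CG stood at 133% ± 4.51 of that adaptor sum with IRF4 shRNA and at 38.3% ± 5.09 in controls. The catalytic sum was 143% ± 7.34 of the INPP5D level with IRF4 shRNA and 180% ± 5.37 in controls. Relative to the 3 class IA catalytic genes, PIK3R1 was lower with IRF4 shRNA in series 1 and higher in series 2, with 14.6% ± 0.422 with IRF4 shRNA and 19.5% ± 0.832 in controls in series 1, and 19% ± 0.481 with IRF4 shRNA and 16.6% ± 1.31 in controls in series 2 (SD, n = 3 each). In series 2 the highest control was at 18% and the lowest IRF4 shRNA library at 18.6%. These ratios use levels without removal of the GC trend, and transcript GC content is 40.1% for PIK3R1 and 58.6% for PIK3CD. The part of GC content in the ratios was not tested. Ratios of transcripts say nothing of protein.

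**Figure D3:**
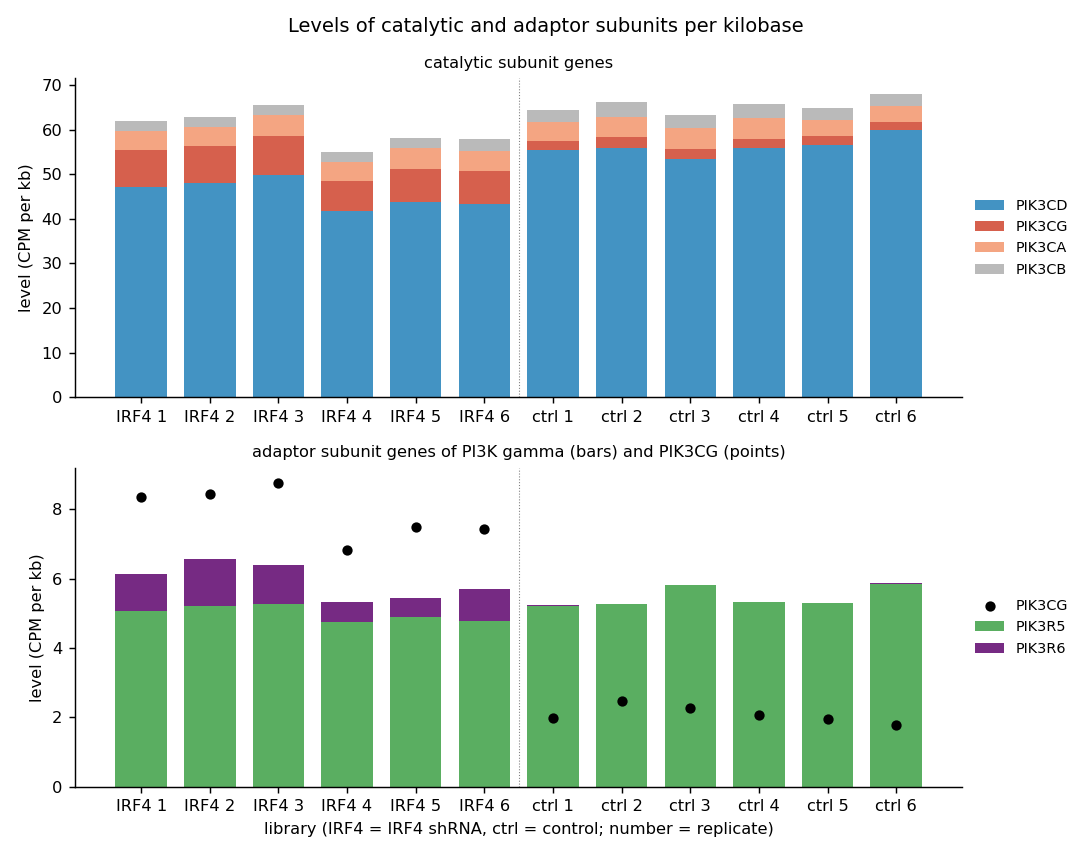
Levels per kilobase of exon (vertical axes, CPM per kb, from 0) in each library, IRF4 shRNA at the left and controls at the right of the dotted line; the upper panel stacks the 4 catalytic genes, and the lower stacks PIK3R5 and PIK3R6 with PIK3CG as points. PIK3CG points lay above the adaptor bars in all IRF4 shRNA libraries (128% to 138% of the bar) and below them in all controls (30.5% to 46.5%).

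Promoter windows from RefSeq (GRCh38.p14, 250 bases before to 50 after a start site, plus strand for the genes shown) were matched by symbol for 8 of the 9 genes, all but PIK3R6, with 15 windows in all. IRF4 is known to bind interferon-stimulated response elements and, with PU.1 or SPIB, Ets-IRF composite elements. For the response element both strands were searched for GAAA, then any 2 bases, then GAAA, and for the composite element for GGAA, any 2 bases and GAAA, and 1 stretch cannot match both on the same strand. Of 34943 RefSeq windows of this length, 3.57% held the letters of the response element and 2.82% those of the composite element. Among the windows of the set, 4 held a match, in PIK3CD, PIK3CB and INPP5D. The windows below show a gene that fell, a gene that rose slightly and the catalytic gene that rose most, with matches in capitals.
PIK3CD, chr1:9651481-9651780, response element letters 87 bases before the start: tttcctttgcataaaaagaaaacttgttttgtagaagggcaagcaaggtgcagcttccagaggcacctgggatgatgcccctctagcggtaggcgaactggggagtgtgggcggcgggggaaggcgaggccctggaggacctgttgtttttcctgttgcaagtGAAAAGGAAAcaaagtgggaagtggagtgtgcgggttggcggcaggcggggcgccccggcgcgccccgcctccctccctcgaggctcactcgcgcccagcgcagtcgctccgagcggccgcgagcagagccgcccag
INPP5D, chr2:233060092-233060391, composite element letters on the minus strand 41 bases before the start: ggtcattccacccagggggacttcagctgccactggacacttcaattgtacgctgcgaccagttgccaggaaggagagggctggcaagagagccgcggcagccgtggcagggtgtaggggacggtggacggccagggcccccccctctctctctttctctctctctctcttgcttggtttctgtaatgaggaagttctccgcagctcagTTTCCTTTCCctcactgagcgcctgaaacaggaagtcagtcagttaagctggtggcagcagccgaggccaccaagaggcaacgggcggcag
PIK3CG, chr7:106865229-106865528, with no match to either: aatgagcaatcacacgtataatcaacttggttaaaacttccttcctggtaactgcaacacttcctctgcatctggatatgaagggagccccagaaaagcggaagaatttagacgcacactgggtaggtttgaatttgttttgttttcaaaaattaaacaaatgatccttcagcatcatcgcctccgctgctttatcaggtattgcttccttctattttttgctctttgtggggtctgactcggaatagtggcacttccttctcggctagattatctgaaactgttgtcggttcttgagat
A match is a description of letters and not a binding site, and the lack of one says only that these letters were not in this window.

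Around these genes, 9 lists of pathway genes held 118 genes, of which 111 were tested. Of these 48 rose and 19 fell, beside 24.2% and 23.9% of all genes tested. Scaled by totals alone 60 were higher and 12 lower, where over all 16437 genes tested 5250 were higher and 2969 lower. With the GC trend removed 54 were higher and 22 lower, beside 4584 and 4147 of 15783 genes tested. The 7 other PI3K subunits and inhibitors tested had 2 higher and 1 lower and a median log2 fold change of 0.0057, beside a median of -0.0056 over all genes tested. PIK3C2B, a class II enzyme, averaged 34.1 ± 3.51 CPM with IRF4 shRNA and 9.33 ± 0.832 CPM in controls and rose by 1.87 on the log2 scale (adjusted p = 5.8e-11). PIK3IP1, which restrains PI3K at the membrane, rose at a low level, with 2.94 ± 0.353 CPM with IRF4 shRNA and 1.91 ± 0.486 CPM in controls (log2 fold change 0.62, adjusted p = 0.00393). Its groups overlapped, and in series 2 alone it did not pass (log2 fold change 0.48, adjusted p = 0.0881). PIK3R2, a class IA regulatory subunit gene, fell, with 24 ± 2.11 CPM against 37 ± 6.01 CPM (log2 fold change -0.63, adjusted p = 6.7e-05). PIK3R3, another such subunit gene, was at 14 ± 0.592 CPM with IRF4 shRNA and 14.5 ± 0.56 CPM in controls, and did not pass the test (log2 fold change -0.046, adjusted p = 0.464). The class III pair PIK3C3 and PIK3R4 and the class II gene PIK3C2A did not pass either, with log2 fold changes of 0.0057, 0.12 and -0.19. With the GC trend removed 3 of the 7 genes were higher and 2 lower.

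Of 21 other phosphoinositide phosphatases tested, 7 rose and 5 fell, with a median log2 fold change of 0.065. INPPL1, the gene of SHIP2, rose by 0.33 (adjusted p = 0.000232). SYNJ2, a synaptojanin, had 7.17 ± 1.66 CPM with IRF4 shRNA and 0.486 ± 0.262 CPM in controls and rose by 3.86 (adjusted p = 1.41e-08). INPP5F rose by 0.87 (adjusted p = 3.03e-06), while FIG4 and MTMR1 fell by 0.29 and 0.25 (adjusted p = 0.000376 and 0.000134). In series 2 alone FIG4 did not pass (log2 fold change -0.18, adjusted p = 0.112). Of 11 phosphoinositide kinases tested 6 rose and none fell, with a median of 0.20, led by PIKFYVE, the kinase of endosomal lipids, at 332 ± 4.85 CPM with IRF4 shRNA and 191 ± 19 CPM in controls (log2 fold change 0.80, adjusted p = 1.64e-08). PIP5K1B, PI4K2A, PIP4K2A and PI4KA rose by 0.79, 0.43, 0.30 and 0.20. Of 11 enzymes of soluble inositol phosphates tested, 4 rose and 2 fell. ITPKB, which phosphorylates inositol trisphosphate, had 87.6 ± 13.9 CPM with IRF4 shRNA and 13.1 ± 1.04 CPM in controls, a log2 fold change of 2.74 (adjusted p = 1.12e-11).

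Upstream of class IA PI3K, 14 adaptors and receptors were tested, of which 7 rose and 3 fell, with a median log2 fold change of 0.13. IL2RB, a cytokine receptor chain, averaged 71.3 ± 3.5 CPM with IRF4 shRNA and 22.9 ± 1.82 CPM in controls and rose by 1.64 (adjusted p = 4.66e-12), IRS1 by 1.05 (7.7e-07), TNFRSF13C, the BAFF receptor gene, by 0.60 (6.93e-09) and SYK by 0.34 (2.08e-07). Among 10 inputs of PI3K gamma tested, 4 rose and 1 fell. GNG2, a G protein gamma subunit, had 104 ± 4.4 CPM with IRF4 shRNA and 46.9 ± 3.09 CPM in controls (log2 fold change 1.15, adjusted p = 4.06e-11). RRAS2, GNB4 and GNG5 rose by 0.82, 0.62 and 0.34, and GNB1 fell by 0.11. The groups overlapped in GNG5 and GNB1, and in series 2 alone neither passed (adjusted p = 0.494 and 0.363).

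Downstream, 17 effectors of PIP3 were tested, and 8 rose and 4 fell, with a median log2 fold change of 0.13. AKT2 averaged 276 ± 14 CPM with IRF4 shRNA and 205 ± 17.6 CPM in controls (log2 fold change 0.43, adjusted p = 9.12e-06) and AKT1 rose by 0.16 (adjusted p = 0.00457). The groups overlapped in AKT1, and in series 2 alone its log2 fold change was 0.073 (adjusted p = 0.301). PLCG2, the phospholipase below the B cell receptor, rose by 0.34 (adjusted p = 1.04e-07), SGK1 by 0.65 (2.06e-06) and the kinase gene TEC by 1.17 (4e-08), while MLST8, a subunit of the mTOR complexes, fell by 0.55 (0.000896). Scaled by totals alone, 10 of these 17 were higher and 1 lower, where all genes tested also leaned to rises (5250 higher, 2969 lower). Of 11 restraints and substrates of AKT, 4 rose and 3 fell, and TRIB3, which binds AKT, had 40.4 ± 4.75 CPM with IRF4 shRNA and 84.6 ± 13.6 CPM in controls (log2 fold change -1.07, adjusted p = 5.83e-07).

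Among the SHIP1 partners and inhibitory receptors, 6 of the 9 genes tested rose and none fell, with a median log2 fold change of 0.80. PTPN6, the gene of the phosphatase SHP1, averaged 557 ± 39 CPM with IRF4 shRNA and 230 ± 12 CPM in controls (log2 fold change 1.28, adjusted p = 2.04e-11). CD22, an inhibitory receptor of B cells, was at 611 ± 23.7 CPM with IRF4 shRNA and 300 ± 6.02 CPM in controls (log2 fold change 1.03, adjusted p = 1.5e-12). CD72, FCRL3 and DOK3 rose by 0.94, 0.80 and 0.85. Scaled by totals alone, all 9 were higher. That setting also moved the whole table, to 5250 genes higher and 2969 lower from 3983 and 3935 of 16437 tested. CD22 also belongs to the B cell markers whose sum was higher with IRF4 shRNA.

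**Figure D4:**
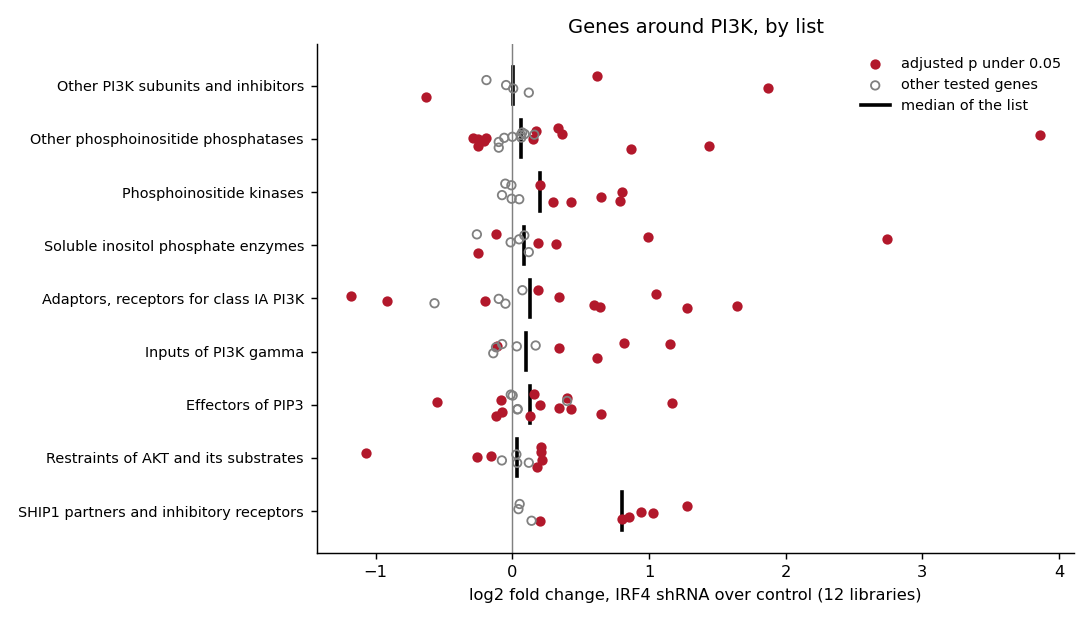
Log2 fold change over 12 libraries, IRF4 shRNA over control (horizontal axis), of the 111 tested genes of the 9 pathway lists (rows), with filled points past the adjusted p of 0.05, open points not past it, and a bar at each list's median. The SHIP1 partner list has the median farthest from 0, at 0.80, and neither it nor the phosphoinositide kinase list has a called gene to the left of 0.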

How the data were processed

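RNA was measured in 12 libraries, 6 with IRF4 shRNA and 6 controls, sequenced paired-end at 100 bp from a stranded poly(A) kit, per the labels' protocols. The authors deposited 1 table of estimated counts (expected counts) for 26318 genes, without normalization, and the submitters' processing notes name STAR, HTSeq and hg38 with no versions. The step that gave fractional values (66.6% were whole at a tolerance of 1e-06), the annotation release and the strand setting are not stated there. Every title says TMD8, although a cell line field counts upward from that name, so all libraries were taken as TMD8. No value column was without a sample.

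Counts were rounded and fitted over all genes with edgeR 4.0.16 in R 4.3.3 (quasi-likelihood test, TMM, filterByExpr with a minimum count of 10, Benjamini-Hochberg adjusted p under 0.05). The models compared IRF4 shRNA with control over 12 libraries, within each library series, and by an interaction term for series. SE is the log2 fold change over the square root of F. Levels are CPM on TMM-scaled totals, and levels per kb use exon lengths of GENCODE 29. A floor of 3 counts is 0.0786 to 0.0959 CPM per library. No pair of replicates looked like 1 library deposited again, since chi-square over degrees of freedom was 2.73 to 31.9 for genes with at least 20 counts. The fits were tested on simulated counts. The genes of the set and the pathway lists were chosen with earlier results of these data known. Beside the 9 genes, IRF4 and 8 preset genes, the text names up to 5 genes of each list with the smallest p at a mean of at least 1 CPM, and the 3 genes nearest in pattern to genes that changed at least 2-fold (not given for PIK3R6). PIK3C3, INPP4B and overlapping or neighbouring genes were named after their values were seen. Some genes that this rule names are not reported here. Alternatives were other scalings and filters, DESeq2 1.42.0, blocks by replicate number, removal of GC trends, and leaving out libraries.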

Additional observations from a re-analysis of the deposited data

Results flagged for a closer look

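For 2 of the 9 genes the effect of IRF4 shRNA differed between the library series by an interaction test over 12 libraries (edgeR, adjusted over all genes tested). For PIK3R1 the effect in series 2 was higher than in series 1 by 0.42 on the log2 scale (SE 0.068, adjusted p = 0.00508), and for PIK3CD it was lower, at -0.24 (SE 0.057, adjusted p = 0.0196). The PIK3R1 difference kept its call with the GC trend removed, at 0.26 (adjusted p = 0.00543), and at 0.33 when control replicates 5 and 6 were left out (adjusted p = 0.0358). The PIK3CD difference was -0.0062 with the GC trend removed (adjusted p = 0.969) and -0.20 in the absence of those controls (adjusted p = 0.131). What the series stand for is not given in the labels, so hairpin, culture and batch cannot be told apart. No single library stood apart within its group of 6 for any of the 9 genes by Dixon's test at the 95% level. That test can miss libraries that deviate together, such as control replicates 5 and 6, and groups that split by series.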

How the results depend on the processing

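Over 12 libraries PIK3CB, PIK3CD, PIK3CG, PIK3R1, PIK3AP1 and INPP5D kept their direction and call in all 22 alternatives, and PIK3R5 in 13 of 22. Of 648 values of the 9 genes under all alternatives, 20 turned direction, none of them from a value that had passed the threshold, and the PIK3CA values of series 1 with the GC trend removed passed it after turning. PIK3CA gave -0.055 over 12 libraries and -0.087 in series 2 without control replicates 5 and 6, and -0.0024 to 0.087 over 12 libraries when 1 library was left out. In series 1, scaling by totals alone gave 0.018 for PIK3CA and 0.00058 for PIK3R5, and removal of the GC trend, with or without the replicate block, gave 0.13 for PIK3CA (adjusted p = 0.0307 with the block and 0.0256 without). The series difference turned to -0.029 (GC trend removed), -0.027 (with the block too) and -0.038 (without control replicates 5 and 6) for PIK3CA, to 0.13 for PIK3R5 and 0.011 for INPP5D (GC trend removed, with and without the block), and to 2.43 for PIK3R6 without control replicates 5 and 6. When 1 library was left out it ran from -0.11 to 0.044 for PIK3CG, -2.0 to 2.42 for PIK3R6 and -0.094 to 0.0046 for PIK3AP1. The count of genes changed in series 2, 7 of 9, ran from 4 to 8 with 1 library left out, and was 5 with scaling by totals alone, no filter, or either replicate block. Over all genes, 6332 of 16614 tested were called in series 2, and 4444 to 8611 with 1 library left out. That number was 6648 with scaling by totals alone, 6254 of 24749 tested with no filter, and 5237 or 5259 with a replicate block. The count whose change differed between series, 2 of 9, became 1 with the block by replicate number, with the GC trend removed, with both, and without control replicates 5 and 6, and ran from 1 to 3 with 1 library left out. The PI3K subunit list had 5 genes called with the GC trend removed, where 8731 of 15783 genes tested were called. The cause of these changes was not tested.

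Over all genes the interaction was called for 2248, against 1157 and 1283 with the block by title number or library name, 1279 with the GC trend removed, 1026 with both, 202 without control replicates 5 and 6, and 723 to 5244 with 1 library left out, the highest without control replicate 4. Libraries with the same replicate number did not deviate together (correlations of -0.07 to 0.02 about the means of group and series), so the number was not taken as a pairing. With the replicate block, 7 of 9 genes were called over 12 libraries, PIK3R5 being lost (adjusted p = 0.0602), and in series 2 PIK3R1 (0.0765) and PIK3R5 (0.103) both lost their calls. Depth limits PIK3R6, whose controls lie near the floor of 3 counts.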

Other observations

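Of 39 other genes within 200 kb of the 9 genes and not overlapping them, 29 were tested, 8 rose and 6 fell. Over all genes tested 24.2% rose and 23.9% fell, so these counts alone do not set the neighbours apart. On the same strand as PIK3R6 and 3.36 kb from it lies MFSD6L, which held 65 counts in the IRF4 shRNA libraries together and 2 in the controls, too few to pass the filter. CCDC42, 57.5 kb from PIK3R6, held 7 and 7 counts. NTN1, 55.8 kb from PIK3R5, averaged 8.42 ± 0.85 CPM with IRF4 shRNA and 6.06 ± 0.888 CPM in controls (log2 fold change 0.47, edgeR adjusted p = 0.000956). TLL2, 79.4 kb from PIK3AP1, averaged 4.77 ± 0.449 CPM and 2.37 ± 0.166 CPM (log2 fold change 1.01, adjusted p = 1.92e-07). NGEF, 46.7 kb from INPP5D, averaged 0.569 ± 0.141 CPM with IRF4 shRNA and 0.1 ± 0.043 CPM in controls, from 122 and 20 counts. Like PIK3R6, NGEF passed the filter only through its IRF4 shRNA libraries. Its call, which is among the 8 rises, was thus bound to be a rise and its p is not given. Among those that fell, CEP70, 58.2 kb from PIK3CB, averaged 21.9 ± 0.992 CPM with IRF4 shRNA and 28.1 ± 2.17 CPM in controls (log2 fold change -0.36, adjusted p = 6.95e-05), and FAIM, 19.3 kb from PIK3CB, had a log2 fold change of -0.32 (adjusted p = 0.00111). RPL13AP5, a pseudogene 29.8 kb from PIK3AP1 that may share reads with its parent gene, had -0.61 (adjusted p = 4.26e-09). These neighbours were named after their values were seen.

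Among 14163 genes at 1 CPM or more in either group, those nearest in pattern to PIK3CG, by the root mean square difference of centred log2 CPM over 12 libraries, were SAMD9 (0.09), HVCN1 (0.10) and TGFBR3 (0.12). HVCN1, a proton channel gene of B cells, averaged 46.6 ± 4.87 CPM with IRF4 shRNA and 12.5 ± 0.501 CPM in controls. A pseudocount of 0.1 CPM entered this measure, and since PIK3R6 lay at 0 to 0.116 CPM in controls, no likeness is given for it.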
